A study of Mus musculus with 2 samples.

Results

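The 30 genes described here act in the DNA damage response and in DNA repair, and were followed in the forebrain of mouse embryos at embryonic day 11.5. They were chosen by name, with earlier results of these data known, and all 30 were found by their stable identifiers among the 43346 Ensembl entries of the gene tables, of which 21474 are protein-coding. The tissue was whole forebrain of B6NCrl embryos of mixed sex at 11.5 days, and the study holds a single group of 2 libraries, with no second genotype, treatment or age. Replicate 1 was made from tissue of 109 embryos and replicate 2 from tissue of 88 embryos, so each is a pool, and the labels number them as biological replicates. Each library was made from 10 ng of total RNA longer than 200 nucleotides with spike-in RNA added, and its transcripts were quantified as estimated (expected) counts and as TPM, which scales counts by transcript length and by the library total. Expected counts over mouse genes summed to 23165223 in replicate 1 and 33597022 in replicate 2. The forebrain markers Lhx2, Six3, Emx1, Emx2, Pax6, Dlx1 and Dlx2 each reached 1 TPM in both libraries, and none of 5 Hox genes of the hindbrain and trunk did. RNA of other cells was present too: 5 erythroid genes summed to 12749 and 13808 TPM in replicates 1 and 2, 5 mesenchymal genes to 582 and 593 TPM, 5 endothelial genes to 78.5 and 76.0 TPM and 5 microglial genes to 45.7 and 40.0 TPM. In whole tissue, fewer cells of a type and less RNA per cell cannot be told apart, and which cells carried the repair transcripts was not tested.

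Damage to DNA is read by the kinases Atm, Atr and DNA-PK. Atm and Atr act through the checkpoint kinases Chek2 and Chek1 to halt the cell cycle. A break is rejoined directly by end joining or copied from the sister chromatid by homologous recombination, the Fanconi pathway frees crosslinked strands, mismatch repair corrects copying errors, and base repair replaces single damaged bases. The early forebrain is built of fast-dividing neuroepithelial cells, and mice that lack end-joining ligase lose newborn neurons there.

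All 30 genes were detected, with Parp1, Trp53bp1 and Xrcc1 at the top of the order and Brca2, Fancm and Bard1 at the bottom. Parp1, which senses nicks in DNA and recruits the base repair scaffold, was the most abundant at 218 TPM in replicate 1 and 223 TPM in replicate 2. Bard1, the partner of Brca1, was the least abundant at 2.82 and 2.73 TPM. Each of the 30 genes reached 1 TPM in both libraries, as did 58.6% of all protein-coding genes. At 5 TPM the count was 29 of 30, with Bard1 alone below, against 47.1% of protein-coding genes. At 10 TPM it was 24, against 39.4% of protein-coding genes, and at 20 TPM 15, against 29.1%. At 50 TPM it was 6, against 14.8%, and at 100 TPM 2 (Parp1 and Trp53bp1), against 6.99%. Their percentile among protein-coding genes by mean TPM ranged between 47.3 and 97.2, with a median of 71.8. The median over the 30 genes was 20.4 and 24.7 TPM in replicates 1 and 2, against 20.6 TPM in each library over the 12581 protein-coding genes at 1 TPM or more.

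The order of levels was largely shared by the libraries, with a Spearman rho of 0.985 across the 30 genes, which are not independent replicates. Below Parp1, Trp53bp1 and Xrcc1 came Msh6, Ercc1 and Chek1. Of the 29 neighbouring pairs in it, 12 had library values that did not overlap, among them Parp1 over Trp53bp1, Trp53bp1 over Xrcc1, Ercc1 over Chek1 and Fancm over Bard1. From Fanca through Mre11a, Fancl, Brca1, Chek2, Atr and Rad50 down to Fancd2, the values of each gene overlapped those of the next, so steps between neighbours there are not resolved. Over more than 1 step some were apart, and Fanca lay above Brca1, Chek2, Atr, Rad50 and Fancd2 in both libraries. Parp1 alone held 19.5% and 19.1% of the summed 1123 and 1166 TPM of the 30 genes. Expected counts lay between 172 (Xrcc4, replicate 1) and 16120 (Parp1, replicate 2), and the half-width of the exact 95% Poisson interval was between 1.55% and 15.2% of the count. Genes of greater mean transcript length tended to have lower TPM. The Spearman rho between mean transcript length and TPM was -0.43 over the 30 genes and -0.26 over all detected protein-coding genes. These values describe genes of the same libraries and carry no test.

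**Figure D1:**
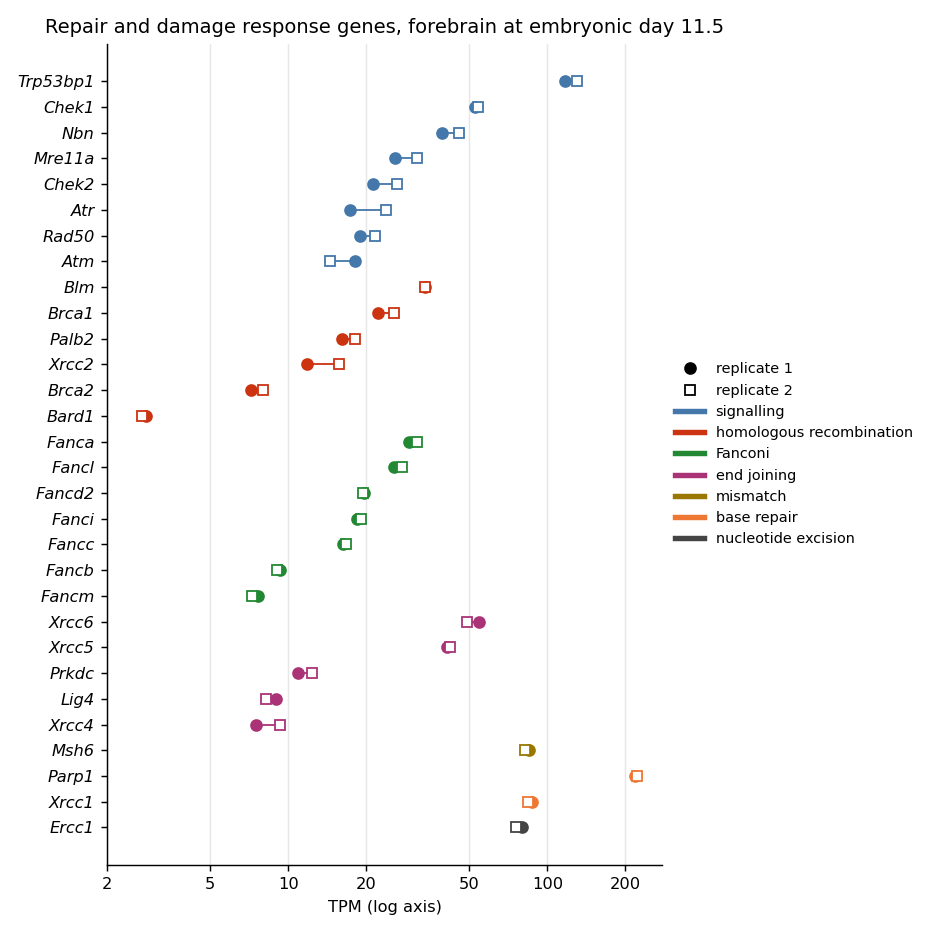
TPM (log axis) of each of the 30 genes in replicate 1 and replicate 2, grouped by pathway and ordered by mean TPM within it. Parp1 lies above 200 TPM and Bard1 below 3 TPM in both libraries.

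Among the genes that detect damage and signal it, the adaptor Trp53bp1 stood highest, at 117 TPM in replicate 1 and 130 TPM in replicate 2 (124 ± 9.23, SD, n = 2). Trp53bp1 binds chromatin beside a break and steers it toward end joining. Chek1, the effector kinase of Atr, followed with 52.6 and 53.8 TPM. The Mre11a-Rad50-Nbn complex, which binds broken ends and activates Atm, had unequal levels. Nbn had 39.1 and 45.4 TPM, Mre11a 25.8 and 31.3 TPM, and Rad50 19.0 and 21.6 TPM. Nbn was thus 2.06 and 2.11 times Rad50, and Mre11a 1.36 and 1.45 times Rad50, in replicates 1 and 2. Chek2, the effector kinase of Atm, had 21.3 and 26.2 TPM. The kinase Atr had 17.3 and 23.8 TPM, and the kinase Atm had 18.2 and 14.5 TPM. Their ratio therefore changed side between the libraries, with Atr at 0.954 times Atm in replicate 1 and 1.65 times in replicate 2, so no order of the 2 kinases can be given.

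In homologous recombination, Blm, a helicase that unwinds recombination intermediates, was the highest gene at 33.6 and 33.8 TPM. Brca1, a ubiquitin ligase that promotes resection of ends, had 22.1 and 25.5 TPM. Palb2, which links Brca1 to Brca2, had 16.2 and 18.1 TPM, Xrcc2, an assembly factor of recombination, 11.8 and 15.6 TPM, and Brca2, a mediator of strand exchange, 7.15 and 8.01 TPM. Brca1 was 7.83 and 9.34 times its obligate partner Bard1, the widest gap among the 14 pairs looked at. Brca2 was 0.442 and 0.444 times Palb2.

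Within the Fanconi pathway the levels lay closer together. Fanca, a core complex subunit, had 29.1 and 31.3 TPM, and Fancl, the ubiquitin ligase of that complex, 25.5 and 27.6 TPM. Fancd2 and Fanci, which the core complex ubiquitinates as a pair, were almost level, Fancd2 at 19.5 and 19.4 TPM and Fanci at 18.4 and 19.0 TPM, a ratio of 1.06 and 1.02. The core subunits Fancc and Fancb had 16.2 and 16.8 TPM and 9.28 and 9.06 TPM. Fancm, the translocase that anchors the core complex to DNA, was lowest at 7.63 and 7.24 TPM.

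End joining was split between its end-binding subunits and the rest. Xrcc6 (Ku70) had 54.3 and 49.0 TPM and Xrcc5 (Ku80) 41.0 and 42.2 TPM, a ratio of Xrcc5 to Xrcc6 of 0.756 and 0.861 although the proteins form a heterodimer. Prkdc, the catalytic subunit of DNA-PK that Ku recruits, had 10.9 and 12.4 TPM, or 0.201 and 0.253 times Xrcc6. The ligase Lig4 had 8.97 and 8.2 TPM and its partner Xrcc4 had 7.5 and 9.27 TPM. Lig4 was above Xrcc4 in replicate 1 and below it in replicate 2, so these partners were not apart.

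The other repair pathways have 1 or 2 genes among the 30. Msh6, which recognises mismatches, had 84.8 and 82.0 TPM, 2.74 and 2.36 times Msh3, which recognises larger loops. In base repair, Xrcc1, the scaffold that Parp1 recruits, had 87.5 and 83.9 TPM, 1.90 and 1.87 times Lig3, the ligase it binds. Ercc1, a nuclease subunit of nucleotide excision and crosslink repair, had 79.9 and 75.4 TPM, 6.35 and 5.33 times its partner Ercc4 by gene but 0.543 and 1.11 times by the main coding transcript of each.

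**Figure D2:**
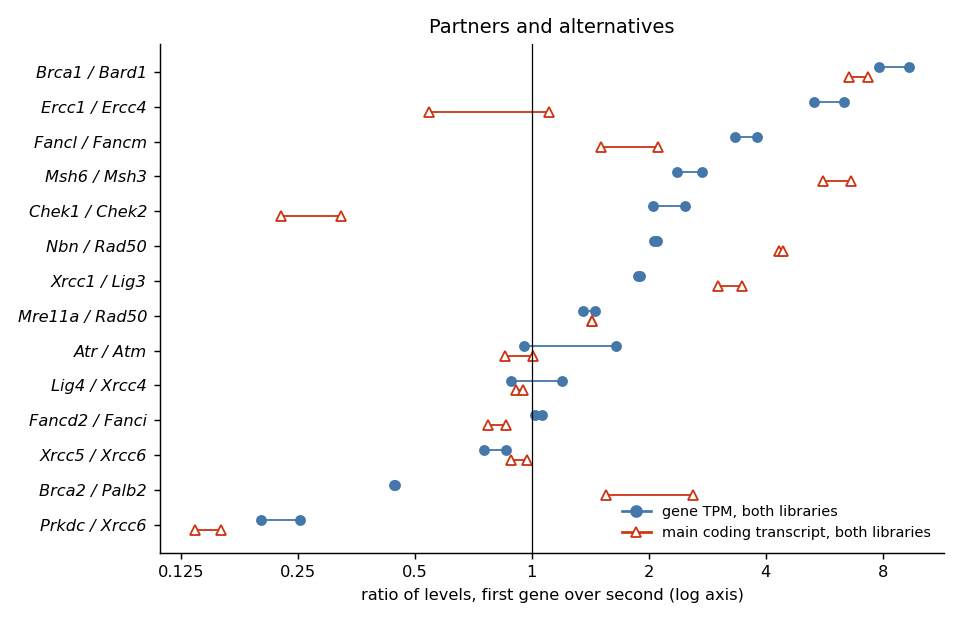
Ratio of levels (log axis) within 14 pairs of partners or related genes, from gene-level TPM (circles) and from the main coding transcript alone (triangles), with a line joining the libraries. Chek1 over Chek2, Brca2 over Palb2 and Fancd2 over Fanci lie on opposite sides of 1 by the gene and by the coding transcript in both libraries.

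By pathway, the median TPM of end joining was the lowest, at 10.9 in replicate 1 and 12.4 in replicate 2 over 5 genes. Homologous recombination followed with 13.97 and 16.84 over 6 genes, the Fanconi pathway with 18.4 and 19.0 over 7 and damage signalling with 23.5 and 28.8 over 8. Nucleotide excision (Ercc1 alone), mismatch repair (Msh6 alone) and base repair (Parp1 and Xrcc1) stood higher at 79.9 and 75.4, 84.8 and 82.0, and 153 and 153. The order was the same in both libraries, although a pathway held by 1 gene has no spread between genes. It depended on the summary, since by geometric mean with a pseudocount of 1 TPM end joining was at 18.1, above the Fanconi pathway at 16.6 and homologous recombination at 13.0. With coding transcripts alone, nucleotide excision was at 13.1, below signalling at 20.8.

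Wider lists of the same pathways, drawn up with earlier results of these data known, changed the picture for the pathways with few genes among the 30. With the added genes the medians in replicates 1 and 2 were 10.5 and 10.8 TPM for end joining (12 genes), 20.4 and 22.4 for homologous recombination (22), 22.6 and 23.1 for the Fanconi pathway (20), 21.5 and 20.7 for nucleotide excision (13), 27.6 and 28.8 for base repair (21), 33.9 and 34.8 for mismatch repair (7) and 32.6 and 34.3 for signalling (23). End joining stayed lowest in both libraries, while base repair no longer led and lay below signalling and mismatch repair. Parp1 and Xrcc1 stood above the median of the base repair list in both libraries.

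The genes added to each list were detected at 1 TPM in both libraries in all but 1 case, the glycosylase Neil2 with 0.61 and 0.74 TPM. In signalling the histone H2afx, which is phosphorylated around breaks, had 372 and 397 TPM, Trp53 138 and 133 TPM, and the Atr activator Topbp1 84.8 and 93.7 TPM, while Rad17 with 18.7 and 19.8 TPM and the adaptor Mdc1 with 17.3 and 17.4 TPM were lowest. In recombination the exonuclease Exo1 had 121 and 126 TPM and Rad54l 62.6 and 62.6 TPM, against 9.08 and 10.9 TPM for the resolvase Gen1 and 7.51 and 7.96 TPM for Rad51b. In the Fanconi pathway Usp1, which removes ubiquitin from Fancd2, had 135 and 120 TPM, Faap20 84.8 and 83.2 TPM and the ubiquitin ligase Rfwd3 76.3 and 75.8 TPM, against 8.23 and 9.96 TPM for the helicase Brip1 and 6.08 and 6.42 TPM for the nuclease Fan1.

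Among the added end-joining genes Paxx had 19.1 and 17.9 TPM and the polymerase Poll 17.9 and 18.9 TPM, and the polymerase Polm and the nuclease Dclre1c had 7.07 and 6.91 TPM and 6.11 and 5.87 TPM. Xrcc6 and Xrcc5 were therefore the highest genes of the end-joining list in both libraries. In mismatch repair Pms2 had 33.9 and 34.0 TPM, with Pms1 at 21.03 and 23.48 TPM and Mlh3 at 6.58 and 7.4 TPM. In base repair the endonuclease Apex1 had 345 and 335 TPM, the glycosylase Tdg 266 and 270 TPM and the ligase Lig1 133 and 123 TPM, and Neil1 had 4.1 and 4.3 TPM. Apex1 and Tdg both exceeded Parp1 in each library. In nucleotide excision Ddb1 had 317 and 292 TPM, Cetn2 86.1 and 96.2 TPM and Rad23b 74.1 and 63.9 TPM, with Ddb2 at 8.51 and 7.77 TPM and Ercc6 at 6.77 and 7.27 TPM.

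**Figure D3:**
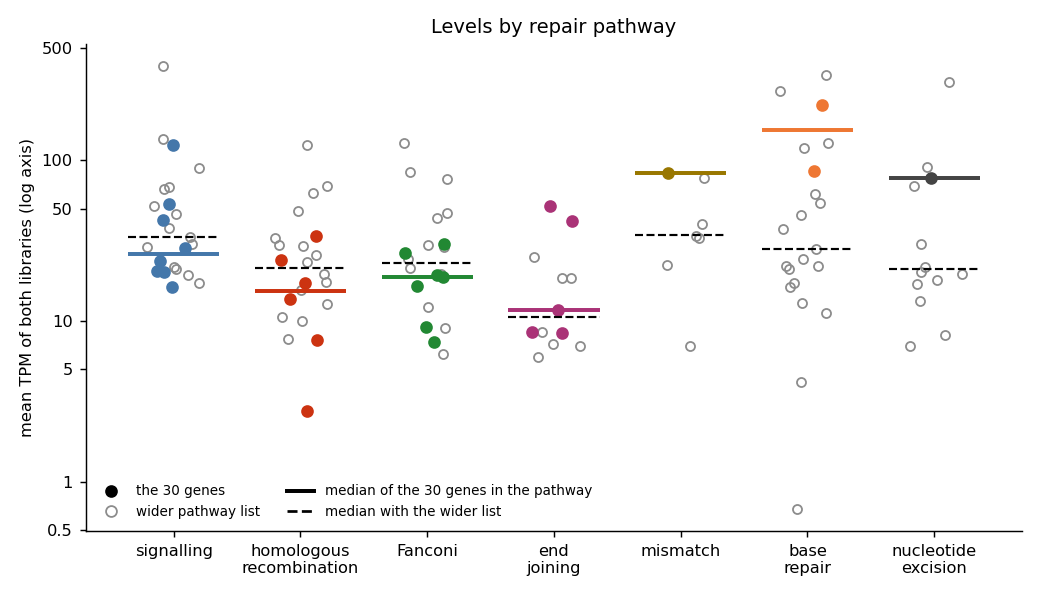
TPM (log axis, mean of the libraries) of the genes of 7 pathways, with the 30 genes filled, the genes of the wider lists open, solid lines at the medians of the 30 genes and dashed lines at the medians with the wider lists. The end-joining genes other than Xrcc6 and Xrcc5 lie below 30 TPM.

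Recombination genes of other tissues were mostly below 1 TPM. Of 9 genes of meiotic recombination, 2 reached 1 TPM in both libraries, Tex15 with 6.11 and 6.72 TPM and Msh5 with 4.59 and 6.16 TPM, and the meiotic recombinase Dmc1 had 0.91 TPM in each. None of 4 genes of lymphoid recombination did, the highest being Rag1 with 0.06 and 0.22 TPM. The end-joining and recombination genes among the 30 were thus transcribed where the genes that break DNA in lymphocytes were not detected at 1 TPM.

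Several of the 30 genes owed much of their TPM to transcripts that are not annotated as coding for the protein. Of the 30, 7 have a single transcript in the tables and 23 have several. Over those 23 the median share of TPM in protein-coding transcripts was 86.7%, against 91.8% over 9244 detected protein-coding genes with several transcripts. The median share in retained-intron transcripts, which keep part or all of an intron, was 11.4% over the 23 genes and 0.868% over the 9244. In 4 genes, Ercc1, Chek1, Palb2 and Fanca, coding transcripts held under 50% in both libraries, against 9.13% of the 9244 genes. These shares come from estimates that divide reads between transcripts, and short transcripts rest on few reads. Shares of expected counts can differ from those of TPM. The coding Fanca-201 held 740 of the 1055 counts of Fanca in replicate 1 and 1180 of 1717 in replicate 2. In Ercc1 the retained-intron Ercc1-202 held 571 of 888 and 685 of 1203 counts.

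**Figure D4:**
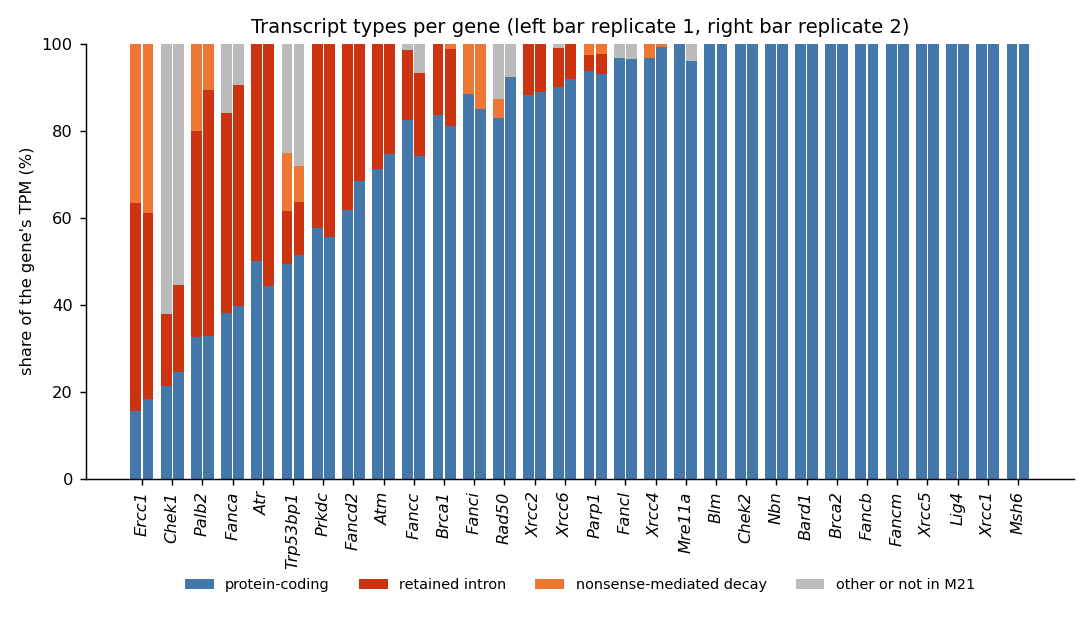
Percent of each gene's transcript TPM in protein-coding, retained-intron, nonsense-mediated decay and other transcripts, with replicate 1 as the left bar and replicate 2 as the right bar of each of the 30 genes. Ercc1, Chek1, Palb2 and Fanca have less than 50% in coding transcripts in both.

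Ercc1 (ENSMUSG00000003549.5, chr7:19344778-19356524 of mm10, plus strand) had the lowest coding share, 15.6% in replicate 1 and 18.4% in replicate 2. Its coding transcripts summed to 12.4 and 13.9 TPM, against 79.9 and 75.4 TPM for the gene. Ercc1-202, annotated as a retained intron, had 34.6 and 28.7 TPM (43.3% and 38.0% of the gene), and the deposited credibility bounds were 28.8 to 36.6 and 23.4 to 30.3 TPM. Ercc1-210, a short transcript of 413 bases annotated for nonsense-mediated decay, had 29.2 and 29.3 TPM (36.6% and 38.9%). The full coding transcript Ercc1-201 had 2.32 and 1.48 TPM. Other coding transcripts were higher in both libraries, Ercc1-203 with 4.6 and 8.52 TPM and Ercc1-209, of 370 bases, with 5.51 and 3.86 TPM. Every coding base of Ercc1-201 also lies in Ercc1-202 or Ercc1-210 (100%), so exonic reads alone do not tell them apart. Sequences that tell Ercc1-201 from Ercc1-202 are shown from the GENCODE M21 transcripts (mm10), 5′ to 3′, and none is shown for Ercc1-210. They are the junction that Ercc1-201 splices and the stretch chr7:19355158-19355307 of Ercc1-202. In that stretch the 120 bases of the kept intron are in capitals between exon bases in lower case:
Ercc1-202 with the intron: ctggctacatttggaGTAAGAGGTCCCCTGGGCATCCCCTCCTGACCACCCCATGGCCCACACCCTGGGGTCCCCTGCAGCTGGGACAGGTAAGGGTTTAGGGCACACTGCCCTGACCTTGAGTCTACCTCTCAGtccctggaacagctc
Ercc1-201 with it removed: ctggctacatttggatccctggaacagctc
The frame of Ercc1-201 carried into this intron meets a stop codon that begins at intron base 28, after 801 coding bases, where Ercc1-201 has 894.

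Chek1 (ENSMUSG00000032113.11, chr9:36708482-36727065, minus strand) had 21.3% and 24.6% of its TPM in coding transcripts, or 11.2 and 13.2 TPM. Another transcript of 1484 bases, whose type is not known because its identifier is not in GENCODE M21, had 7.01 and 0.18 TPM and was not counted as coding. The largest part was Chek1-207, annotated as a processed transcript without an open reading frame, with 23.5 and 26.5 TPM (44.6% and 49.3%) and credibility bounds of 19.5 to 25.7 and 23.2 to 28.0 TPM. The retained-intron transcript Chek1-206 of 508 bases had 7.76 and 10.8 TPM, and the main coding transcript Chek1-201 had 6.88 and 5.93 TPM. Chek1-207 skips exon 3 of the 13 exons of Chek1-201. The junctions are shown with the 30 bases of the upstream exon in lower case and those of the downstream exon in capitals, the skipping one at chr9:36722796-36725826, and the others into and out of the skipped exon at chr9:36723991-36725826 and chr9:36722796-36723826, all on the minus strand:
Chek1-207 skipping: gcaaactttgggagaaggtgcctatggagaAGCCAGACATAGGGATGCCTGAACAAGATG
Chek1-201 into the exon: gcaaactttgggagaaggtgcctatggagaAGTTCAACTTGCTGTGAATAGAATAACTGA
Chek1-201 out of the exon: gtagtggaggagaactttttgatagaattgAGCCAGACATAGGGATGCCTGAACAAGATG
The skipped exon has 224 bases, which leaves 2 on division by 3, and the frame of Chek1-201 read through the skipping junction meets a stop codon 19 bases past it, after 84 coding bases against 1428 in Chek1-201. The transcripts also differ in the annotated length of their last exon, 991 bases in Chek1-207 and 1949 in Chek1-201.

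Prkdc (ENSMUSG00000022672.8, chr16:15637866-15842235, plus strand) divided its TPM between the coding Prkdc-201 of 86 exons, with 6.30 and 6.88 TPM, and Prkdc-202, with 4.62 and 5.50 TPM (42.3% and 44.4%). Prkdc-202 ends after exon 22 by running into the intron for 506 bases. The remaining genes with low coding shares were Palb2, with 32.5% and 32.9%, Fanca, with 38.2% and 39.6%, Trp53bp1, with 49.4% and 51.5%, and Atr, with 50.1% and 44.4%. Palb2-208, a retained-intron transcript of 709 bases, held 41.1% and 49.5% of Palb2, and the coding Palb2-203 17.1% and 28.6%. Fanca-208, a retained-intron transcript of 895 bases, held 26.7% and 26.2% of Fanca. In Trp53bp1 the coding Trp53bp1-202 held 22.8% and 26.0%.

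Counting coding transcripts alone changed the order of the genes. Ercc1 moved from place 5 to place 15 and Chek1 from place 6 to place 18, and the median over the 30 genes was 13.0 TPM. Some ratios between partners turned too, here by another measure, the main coding transcript of each gene alone. Chek1 was 2.48 and 2.05 times Chek2 by gene-level TPM, against 0.324 and 0.226 times by the main coding transcript of each. Brca2 was 0.442 and 0.444 times Palb2 by gene and 2.59 and 1.55 times by main coding transcript. Xrcc5 over Xrcc6 (0.887 and 0.974), Brca1 over Bard1 (6.55 and 7.33) and Nbn over Rad50 (4.34 and 4.44) kept their side. Fancd2 over Fanci did not, at 0.771 and 0.858. By the sum of coding transcripts the same pairs turned, by other amounts. In replicates 1 and 2 Chek1 had 11.2 and 13.2 TPM against 21.3 and 26.2 TPM for Chek2. Brca2 had 7.15 and 8.01 TPM against 5.25 and 5.94 TPM for Palb2. These gaps were narrower than by main coding transcript. Fancd2 had 12.1 and 13.25 TPM against 16.3 and 16.1 TPM for Fanci, which was not narrower.

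Between the libraries, 12 of the 30 genes differed beyond counting error, all 12 higher in replicate 2, by an exact two-sided binomial test on rounded counts with Benjamini-Hochberg adjustment over 18297 genes. Of all tested genes 23.4% differed, 10.9% higher in replicate 1 and 12.6% higher in replicate 2. Among genes with 1000 or more counts, a class that holds 27 of the 30, the share was 34.8%, and 18.9% were higher in replicate 2. The test compares these 2 pools and not conditions, and it does not measure the spread between further pools. The log2 ratio of replicate 1 over replicate 2 was between -0.37 and 0.11 over the 30 genes, with a median of -0.06, against -0.00 over all tested genes. Its SD over the 27 genes with 1000 or more counts was 0.135, against 0.139 over 8779 genes of that depth. A negative ratio was found in 20 of the 30 genes, against 51.0% of tested genes.

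The largest differences were in Xrcc2, at 519 and 969 counts in replicates 1 and 2 (log2 ratio -0.37, exact test with adjusted p = 3.27e-05), and in the kinase Atr, at 1348 and 2481 counts (log2 ratio -0.35, exact test with adjusted p = 2.96e-11). Chek2 had 698 and 1246 counts and a log2 ratio of -0.31, and Fancl 650 and 1132 counts and -0.27. Nbn, Rad50 and Trp53bp1 had log2 ratios of -0.22, -0.21 and -0.17. Fanca and Brca2 stood at -0.17 each, Prkdc at -0.15 and Brca1 and Mre11a at -0.13 each, Mre11a with an adjusted p of 0.047 in the exact test. By role, the 12 comprised 6 of 8 signalling, 3 of 6 recombination, 2 of 7 Fanconi and 1 of 5 end-joining genes. Msh6, Parp1, Xrcc1 and Ercc1 were not among them. The share in either direction was 23.4% over all tested genes and 34.8% over those with 1000 or more counts. Genes of a role are not replicates, and a difference between roles was not tested. Replicate 2 was 1.29 times replicate 1 in Xrcc2, the widest of the 12. In Atm the TPM and the counts differed in direction. Its TPM was 18.2 in replicate 1 and 14.5 in replicate 2, while its counts of 1587 and 2385 gave a log2 ratio of -0.06 (exact test, adjusted p = 0.41). Its short retained-intron transcript Atm-202, of 281 bases, had 4.21 and 0.30 TPM from 11.7 and 1.2 counts, and the retained-intron Atm-204 1.03 and 3.35 TPM. The full coding transcript Atm-201 had 10.1 and 10.5 TPM, and the short coding Atm-203, of 602 bases, 2.78 and 0.0 TPM. All coding transcripts of Atm summed to 12.9 and 10.8 TPM.

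Transcript length moved with the difference between libraries across all genes. Over protein-coding genes under 2000 bases the median log2 ratio was 0.03 and 8.68% were higher in replicate 2. Between 2000 and 4000 bases the median was 0.01 and 12.1% were higher in replicate 2. Over those of 4000 bases or more the median was -0.04 and 23.0% were higher in replicate 2. The median over the 30 genes was -0.03 in the shortest class (6 genes), -0.13 between 2000 and 4000 bases (13 genes, 7 of them among the 12) and -0.06 at 4000 bases or more (11 genes). The part of length in the 12 differences was not tested. Markers of other cell types differed between the libraries too, by the same exact test. Higher in replicate 2 were 2 of 5 erythroid, 1 of 5 mesenchymal and 1 of 5 endothelial genes, among them Hbb-bh1 (log2 ratio -0.25) and Hbb-y (-0.11). Higher in replicate 1 were 1 of 5 mesenchymal, 2 of 5 endothelial and 1 of 5 microglial genes, among them Cldn5 (log2 ratio 0.29) and Tyrobp (0.67). Their part in the 12 differences was not tested.

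**Figure D5:**
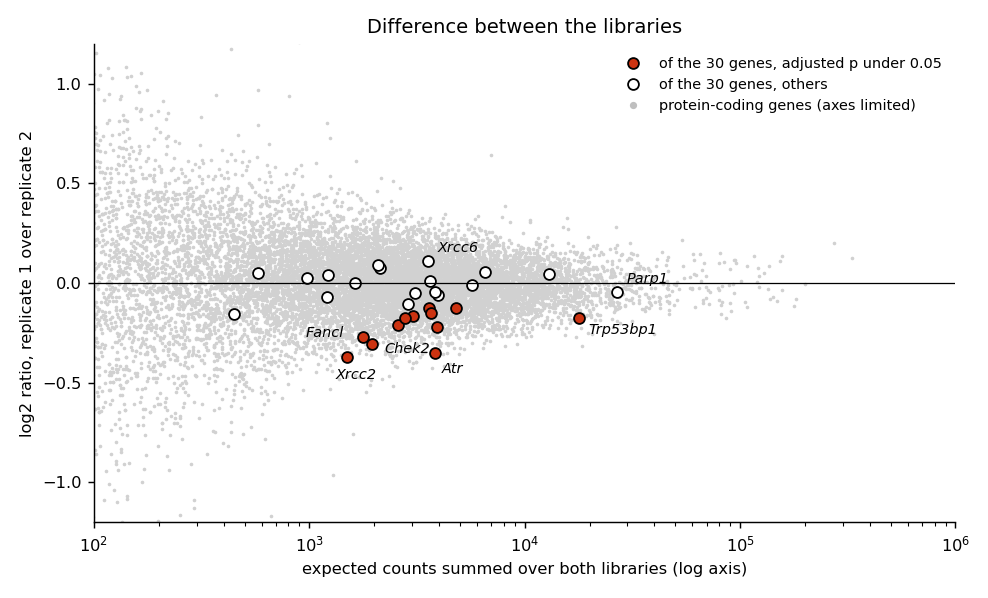
Log2 ratio of replicate 1 over replicate 2 against expected counts summed over both libraries (log axis) for the 30 genes, drawn over protein-coding genes in grey, with axes limited. The 12 genes that differ (filled) lie below 0.

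Of the 30 genes, 11 (36.7%) share a start region with a protein-coding gene transcribed the other way, with start sites within 1000 bases, against 10.8% of all protein-coding genes and 15.9% of detected ones. The partners were Npat for Atm, Hscb for Chek2, Ankrd49 for Mre11a, Nbr1 for Brca1, Dctn5 for Palb2, Mospd2 for Fancb, Emc3 for Fancd2, Mcm4 for Prkdc, Abhd13 for Lig4, Tmem167 for Xrcc4 and Pinlyp for Xrcc1. Of them 10 reached 1 TPM in both libraries and 9 were higher than the repair gene in both. Mcm4, a subunit of the replicative helicase, had 146 and 139 TPM beside 10.9 and 12.4 TPM for Prkdc. Pinlyp was the exception, with 0.10 and 0.00 TPM. Exons on the opposite strand overlapped 15 of the 30 genes, and the share over all genes was not taken. The overlap was largest in Fancc (16.4% of its exonic bases, by Gm16133), Fanci (15.95%, by Polg), Trp53bp1 (15.04%, by Tubgcp4) and Fancl (13.7%, by Vrk2). Gm16133 had 0.14 and 0.19 TPM in replicates 1 and 2, Polg 32.5 and 35.3, Tubgcp4 66.2 and 65.9 and Vrk2 16.5 and 18.7. Whether counting used strand is not given in the sources used here, so reads in these overlaps cannot be told apart.

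Start regions were read from RefSeq (GRCm38.p6), 250 bases before to 50 after the start, for 25 of the 30 genes, which have 26 windows. The letters TTTCCCGC, TTTGGCGC, TTTCGCGC or TTTGCCGC on either strand, which E2F factors can bind, were found in 5 windows (19.2%), against 2.85% of 21263 protein-coding windows. They are shown in capitals within 30 bases, on the strand of the gene:
Bard1, chr1:71103163-71103192, minus strand: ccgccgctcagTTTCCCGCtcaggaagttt
Brca2, chr5:150522442-150522471, plus strand: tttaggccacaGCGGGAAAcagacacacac
Chek2, chr5:110839820-110839849, plus strand: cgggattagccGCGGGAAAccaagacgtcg
Msh6, chr17:87975054-87975083, plus strand: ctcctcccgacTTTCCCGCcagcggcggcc
Xrcc6, chr15:82016312-82016341, plus strand: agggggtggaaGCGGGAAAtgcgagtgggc
The match began 209 bases before the start in Bard1, 168 in Brca2, 152 in Chek2 and 46 in Xrcc6, and at base 16 after it in Msh6. In the order of levels the 5 genes lay between Msh6 in place 4 and Bard1, the lowest of the 30. Of the other motifs searched, CCAAT was in 14 windows (53.8%, against 38.2% of all), the GC box GGGCGG in 17 (65.4%, against 46.2%), CCGGAAGT of ETS factors in 3 (11.5%, against 5.15%), the NRF1 palindrome in 1 (3.85%, against 1.33%), TGACGTCA in 1 (3.85%, against 2.23%) and TGACG, which lies within it, in 10 (38.5%, against 23.6%). A match of letters is a description and shows no binding.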

How the data were processed

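Total RNA of 2 pools of embryonic forebrain was sequenced after a SMART-seq protocol, per the labels. Per the deposited text notes, the build was mm10 and the annotation GENCODE M4. Aligner, quantifier, versions and strand handling: not given in the sources used here. Per the file headers, the deposited gene and transcript tables hold expected counts, TPM and FPKM. Per the file headers they also hold posterior mean TPM and bounds of a credibility interval (signal), whose level is not given, and the transcript tables hold each transcript's percent of its gene. Deposited TPM sum over all entries, spike-ins included. In all transcripts with an effective length above 0, it was the length less a constant.

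The 30 genes were matched through GENCODE M21, which also gave transcript types. The genes, the gene lists and the pairs were chosen with earlier results of these data known. Spike-ins held 5.66% of counts in replicate 1 and 5.49% in replicate 2, and stayed out of library sizes. The libraries' rounded expected counts went into an exact two-sided binomial test, with TMM library sizes from edgeR 4.0.16 (R 4.3.3), for genes reaching 10 counts in sum, and p-values were Benjamini-Hochberg adjusted with a threshold of 0.05. edgeR's quasi-likelihood test needs replicates within groups and was not used. Log2 ratios used a prior of 0.5 counts. The step was tested on simulated data. DESeq2 1.42.0 gave alternative size factors. Intervals cover counting error only. Whole-number counts (within 0.005) were found in 21 of the 30 genes, against 71.0% of tested genes. Named were all 30 genes, partners in pairs, the 3 highest and 2 lowest genes of each wider list, the meiotic and lymphoid genes at 1 TPM or the highest, and transcripts with 20% or more of their gene, of which several main coding transcripts are not listed. The other transcripts and the markers' sums were chosen after their values were seen. A few of the genes covered by this naming are not reported here. No column of per-sample values was left out.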

Additional observations from a re-analysis of the deposited data

How the results depend on the processing

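All 30 genes stayed at 1 TPM or more in both libraries under posterior mean TPM, rescaled FPKM, coding transcripts alone (an alternative chosen after seeing the data) and with either library alone; 29 did at 5 TPM. Pathway medians moved more. With either library alone they ranged between 23.5 and 28.8 TPM for signalling, 13.97 and 16.84 for recombination, 18.4 and 19.0 for the Fanconi pathway, 10.9 and 12.4 for end joining, 82.0 and 84.8 for mismatch repair, 153.0 and 153.3 for base repair and 75.4 and 79.9 for nucleotide excision. With posterior mean TPM the Fanconi median was 19.6, mismatch repair 80.8 and base repair 149. With FPKM rescaled to mouse genes, signalling was 29.98, recombination 17.7, Fanconi 21.5, end joining 13.4, mismatch repair 95.7, base repair 176 and nucleotide excision 89.1, since spike-ins no longer count. With coding transcripts alone the values were 20.8, 9.86, 12.3 and 9.09 for the first 4, 146 for base repair and 13.1 for nucleotide excision. Geometric means with pseudocounts of 1 and 0.1 TPM were 32.7 and 32.5 for signalling, 13.0 and 12.6 for recombination, 16.6 and 16.5 for Fanconi, 18.1 and 17.8 for end joining and 138 and 137 for base repair. With the wider lists signalling was 33.5, recombination 21.4, Fanconi 22.8, mismatch repair 34.3, base repair 28.2 and nucleotide excision 21.1. Of the 30 genes, 12 differed between libraries by TMM sizes, 11 with DESeq2 size factors, 11 with no filter on counts, 13 at 100 or more counts and 14 with sizes set by spike-ins, and all were higher in replicate 2; Mre11a was lost under the DESeq2 factors and without the filter. Of the 12 differences none changed direction under these settings. Ratios within pairs did: by main coding transcript Chek1 over Chek2 was 0.275, Brca2 over Palb2 2.07 and Fancd2 over Fanci 0.814, against 2.26, 0.443 and 1.04 by gene. Ercc1 over Ercc4 averaged 0.826 by main coding transcript, against 5.84 by gene. It changed side in replicate 1 (0.543) and not in replicate 2 (1.11). Lig4 over Xrcc4 was 0.930 by main coding transcript, against 1.04 by gene, and Atr over Atm 0.931, against 1.30. By gene, Atr over Atm was 0.954 with replicate 1 alone and 1.65 with replicate 2 alone. No paired analysis was possible because the study has 1 group. With 2 pools the spread between pools is poorly known, and lowly covered genes (Xrcc4 and Bard1) have the widest counting error.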

Other observations

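Polymerases that copy past damage, which replicate DNA across lesions left by the other pathways, were also measured. All 8 genes of a list of polymerase theta and translesion synthesis were detected at 1 TPM in both libraries, with a median of 12.9 TPM in replicate 1 and 15.8 TPM in replicate 2. Mad2l2, a subunit of polymerase zeta and of the shieldin complex, had 59.4 and 54.2 TPM, the ubiquitin ligase Rad18 had 37.4 and 42.7 TPM and the scaffold polymerase Rev1 had 34.5 and 33.9 TPM. The polymerases Poli, with 7.58 and 7.68 TPM, and Polk, with 6.20 and 6.61 TPM, were lowest.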
